A study of Homo sapiens with 9 samples.

Results

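Kinesins are motor proteins that walk along microtubules with the energy of ATP. Some build and move the mitotic spindle or cut the daughter cells apart, and are made mainly by dividing cells, while others carry organelles, vesicles and RNA through the cell at any time, in pigment cells also parts of the melanosome pathway. A smaller number work at cilia or shorten microtubules. The genes described here are all protein-coding genes whose symbol is KIF followed by a number and that were assembled in at least 1 library. They are 31 of the 14614 genes named in at least 1 library, and 31 of the 39 such genes of the RefSeq annotation. By known role, 11 were counted as mitotic, 13 as transport kinesins and 7 as other kinesins.

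WM3248 is an established human melanoma cell line. The cells received ARN22089, a small molecule made to keep CDC42 and closely related GTPases from binding their effectors, at 4 or 6 µM, or only the vehicle DMSO (0 µM), and poly-A RNA was sequenced after 24 h from 3 libraries per dose. All 9 libraries come from this 1 line. The descriptions do not say whether the libraries of 1 dose were grown as separate cultures, and the p-values then cover the spread among these 9 libraries alone, part of which may be technical.

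Each library had been assembled on its own into 26506 to 30798 transcripts, and 11994 to 12627 genes were named in it. Depth in reads is unknown. Relative depth ran from 0.802 to 1.34 times that of the median library. Replicate 3 at 0 µM stood apart in its total: 2 transcripts took 38.8% of its FPKM (fragments counted per kilobase of a transcript, relative to each library's mapped fragments). All 10 melanoma markers examined were assembled, MLANA in 8 of the 9 libraries. Their summed level was 716 to 1699 FPKM at 0 µM, 1338 to 2414 at 4 µM and 1494 to 2431 at 6 µM. S100B, with a mean of 1005 FPKM, made up much of it, while PMEL, MLANA and TYRP1 averaged 9.40, 4.22 and 2.66. Of the markers of other cells, all 6 fibroblast genes were assembled, COL1A1 in 3 libraries and none at 6 µM, and PDGFRA in 8. Their sum was 22.3 to 78.6 FPKM at 0 µM, 38.8 to 60.6 at 4 µM and 41.5 to 61.7 at 6 µM. KRT5, EPCAM, CDH1, PECAM1, CDH5, VWF, PTPRC, CD3E, CD14, HBB, RBFOX3 and STMN2 were assembled in no library, and CD68 in 1 library at 4 µM alone, at 142 FPKM. KRT14 and KRT8 of the epithelial markers, KDR of the endothelial, and SYP and SNAP25 of the neuronal were assembled in 6, 5, 5, 5 and 1 libraries. The epithelial list summed to 1.70 to 10.3 FPKM at 0 µM, 1.43 to 3.39 at 4 µM and 0 to 1.33 at 6 µM, so that all libraries at 6 µM lay below those at 0 µM. The endothelial list had 0.978 to 1.44, 0 to 0.871 and 0 to 0.834 FPKM at these doses and the neuronal list 0 to 5.72, 0 to 1.56 and 0 to 2.49. The part of these cells in the results was not tested.

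A gene's level is given in FPKM in 2 ways. The summed value adds the FPKM of all transcripts named for the gene and is the main value. When one library's assembly breaks a gene into separate blocks, that sum counts the gene more than once. The exon value averages FPKM over the bases of those exons that at least 50% of the libraries with the gene had assembled. It does not have this fault, but it counts bases that a library left unassembled as 0. The sum can also exceed it for a gene in 1 block of several transcripts. Differences are log2 differences of FPKM + 1 with their standard error (SE), which understate the change of low genes, and p-values come from limma, adjusted over all genes tested (Benjamini-Hochberg) and read against 0.05.

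The promoters of 4 mitotic kinesins and of KIF5B, the ubiquitous heavy chain of conventional kinesin, are shown because both groups of genes come up below and share short sequence elements. Many genes used late in the cell cycle carry a cell cycle genes homology region (CHR, TTTGAA, or its variant TTTAAA) near the start site, often with a CCAAT box, the site of the factor NF-Y. The sequences are RefSeq (GRCh38.p14), 5′ to 3′ on the strand of the gene, and cover the 150 bases that end just before the transcription start. Capitals mark CHR matches, CHR variants and CCAAT boxes on either strand (TTCAAA and ATTGG are the reverse complements).
KIF20A, chr5:138178962-138179111 (+): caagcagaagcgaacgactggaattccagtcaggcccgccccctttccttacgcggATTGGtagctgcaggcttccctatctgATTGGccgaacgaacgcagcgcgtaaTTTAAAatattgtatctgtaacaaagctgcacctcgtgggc
KIF23, chr15:69414199-69414348 (+): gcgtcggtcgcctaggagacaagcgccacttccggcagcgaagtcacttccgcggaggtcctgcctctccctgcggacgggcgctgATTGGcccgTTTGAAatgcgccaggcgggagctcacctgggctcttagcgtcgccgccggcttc
KIF4A, chrX:70289954-70290103 (+): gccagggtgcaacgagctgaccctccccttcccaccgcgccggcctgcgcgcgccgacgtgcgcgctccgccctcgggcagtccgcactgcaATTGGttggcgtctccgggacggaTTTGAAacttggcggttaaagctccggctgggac
KIF11, chr10:92592980-92593129 (+): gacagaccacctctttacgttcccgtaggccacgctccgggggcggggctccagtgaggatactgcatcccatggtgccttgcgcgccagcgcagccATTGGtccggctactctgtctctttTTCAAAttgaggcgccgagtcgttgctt
KIF5B, chr10:32056426-32056575 (-): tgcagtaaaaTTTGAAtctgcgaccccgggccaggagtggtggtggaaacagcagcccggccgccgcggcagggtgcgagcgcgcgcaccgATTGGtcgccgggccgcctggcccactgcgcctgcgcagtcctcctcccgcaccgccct

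The table of promoters held windows of 300 bases, 250 before and 50 after the start, for 27 of the 31 kinesins, 35 windows in all. KIF13B, KIF21B, KIF26B and KIF27 had no entry. A CHR or its variant lay in 10 of the 12 windows of the mitotic kinesins (83.3%), in 2 of 16 windows of the transport kinesins (12.5%) and in 0 of 7 of the other kinesins, against 24% of all 35116 windows and 17.4% of those of genes tested. A CCAAT box lay in 9 of 12 mitotic windows (75%), in 5 of 16 transport windows (31.2%) and in 2 of 7 others, against 34.6% of all. Both lay in 8 of 12 mitotic windows (66.7%), against 9.27% of all. The windows of 1 gene can overlap, and these shares are a description with no test. In KIF20A the variant starts 41 bases before the transcription start and the CCAAT boxes 94 and 67 bases before it. In KIF4A the CHR starts at -34 and the CCAAT box at -58, and in KIF11 at -28 and -53. KIF23 has them 9 bases apart, at -55 and -64. KIF5B is the single transport kinesin with both, its CHR farther out at -140 and its CCAAT box at -59. KIF22, a mitotic kinesin, had no CHR in either of its 2 windows.

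**Figure D1:**
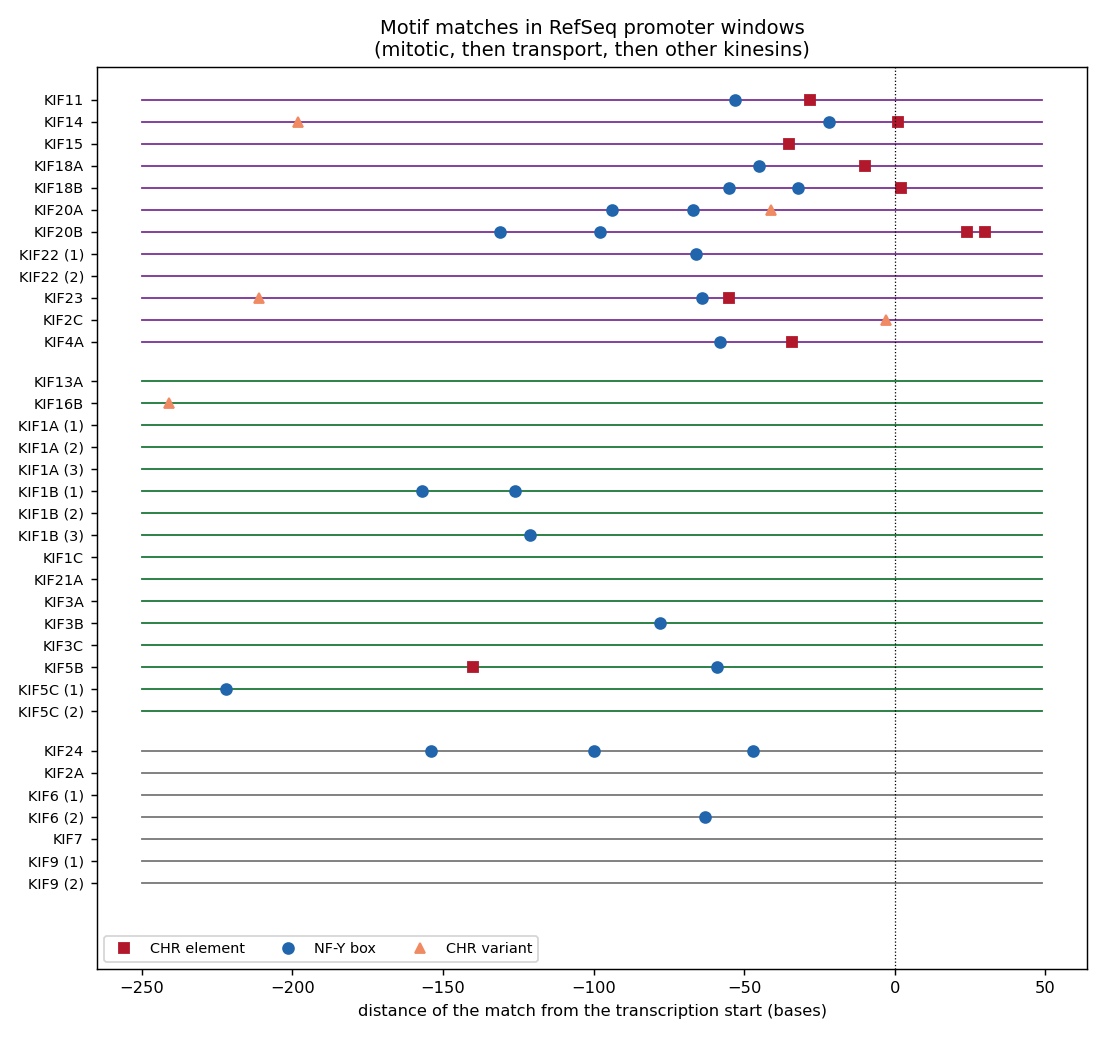
Position of CHR elements (red squares), CHR variants (orange triangles) and CCAAT boxes, the sites of NF-Y (blue circles), in each RefSeq promoter window of the assembled kinesins. The horizontal axis is the distance in bases of the match's first base from the transcription start (dotted line), and a number in brackets tells windows of 1 gene apart. Most matches of the mitotic kinesins (purple, top) lie within 100 bases of the start, while most transport windows (green) hold none.

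The first question was which kinesins differ between treated cells and vehicle. In the summed value 0 of the 29 kinesins tested passed in limma's adjusted test at 6 against 0 µM, where 38 of all 12231 genes tested did (0.311%). At an unadjusted p under 0.05, 15 kinesins were lower and 1, KIF6, was higher, beside 9.68% and 8.07% of all genes tested. All 11 mitotic kinesins were among the 15. The exon value gave more calls, 525 of 12229 genes (4.29%) and 12 of 28 kinesins, all of them lower at 6 µM, while 2.62% of all genes were called lower. The 12 are all 11 mitotic kinesins and KIF5B.

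The 12 calls depend on single libraries. Without replicate 1, 2 or 3 at 0 µM the exon value called 6, 1 and 3 kinesins. Without replicate 1, 2 or 3 at 4 µM it called 2, 3 and 12, and without those at 6 µM 0, 0 and 12. KIF20A passed in 7 of the 9 cases, KIF15 in 6, KIF23 in 4, KIF2C, KIF4A and KIF11 in 3 each, and KIF14, KIF18A, KIF18B, KIF20B, KIF22 and KIF5B in 2 each. KIF7, not among the 12, was called higher in 1 case, without replicate 3 at 0 µM, with an adjusted p of 0.024 at 6 µM and 0.017 at 4 µM. The summed value called no kinesin in any of the 9. KIF20A passed there only under a filter of 5 FPKM on the mean level, with an adjusted p of 0.0448.

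At 4 against 0 µM limma called 10 genes in the summed value (0.0818%) and 7 in the exon value (0.0572%), and 0 kinesins in either. At an unadjusted p under 0.05, 9 kinesins were lower and 2, KIF6 and KIF7, were higher in the summed value (4.63% and 6.23% of all genes), and 15 were lower and 0 higher in the exon value (7.4% of all genes each way). Between 6 and 4 µM 3 genes passed in either value (0.0245%), and again 0 kinesins. There 2 kinesins were lower at an unadjusted p under 0.05 in each value (2.94% of all genes in the summed and 3.29% in the exon value), and 1 was higher in the summed value (1.68%). The comparisons of both doses with 0 µM share the libraries at 0 µM, so their values for a gene are not independent of each other.

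By class, the difference of every mitotic kinesin from 0 µM was negative at both doses and in both values, where 50.2% of all genes tested were negative at 4 µM and 53.6% at 6 µM in the summed value, and 52.1% and 56.2% in the exon value. The median of the 11 was -0.70 at 4 µM and -0.97 at 6 µM in the summed value and -0.72 and -1.10 in the exon value, beside -0.002 and -0.034 over all genes in the summed and -0.015 and -0.054 in the exon value. The libraries at 6 µM lay wholly below those at 0 µM for 11 of the 11 in both values, against 14.1% of all genes in the summed and 19.3% in the exon value. At 4 µM this held for 8 of 11 in the summed value (8.45% of all genes) and for 11 of 11 in the exon value (10.9%). From 4 to 6 µM the median was -0.25 in the summed and -0.36 in the exon value, with 10 and 11 of 11 differences negative (55.4% and 60.3% of all genes).

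Transport kinesins showed smaller differences. Of the 11 tested, 8 were negative at 4 µM and 9 at 6 µM in the summed value, with medians of -0.23 and -0.28, and in the exon value 9 and 9, with medians of -0.082 and -0.20. Scaled to a fixed total per library (TPM), which moves the median of all genes to 0.32 at 4 µM and 0.23 at 6 µM, the transport median was 0.096 and -0.004 and the mitotic median -0.37 and -0.69. The transport median thus lay below that of all genes under either scaling, while its sign at 4 µM turned. The 7 other kinesins had medians of 0.55 at 4 µM and 0.45 at 6 µM in the summed value, and the 6 tested in the exon value 0.17 and -0.011. The gap between the classes was not tested.

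**Figure D2:**
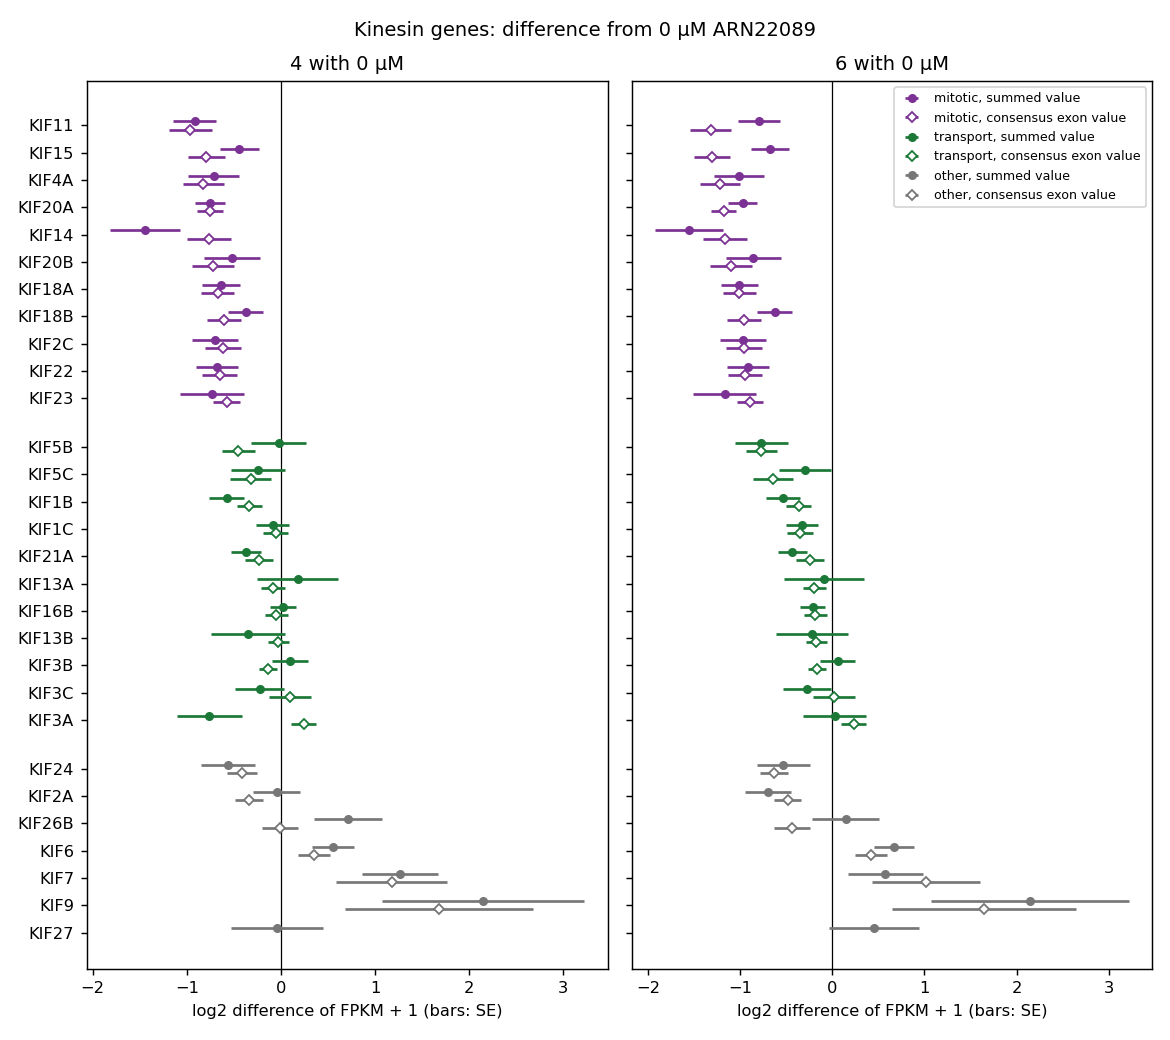
Log2 difference of FPKM + 1 from 0 µM for each kinesin tested, at 4 µM (left) and 6 µM (right), with the SE as bars, in the summed value (filled) and the exon value (open, named consensus exon value in the legend). Mitotic kinesins (purple) lie left of 0 in both panels and both values. Most transport kinesins (green) also lie left of 0, down to -0.77 at 6 µM, and other kinesins (grey) spread to both sides.

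Added over the class, the mitotic kinesins stood at 274, 234 and 214 FPKM in the 3 libraries at 0 µM, with 122, 128 and 172 at 4 µM, and 110, 105 and 131 at 6 µM. No treated library reached the level of a vehicle library. The transport kinesins added up to 147, 139 and 153 FPKM with vehicle, 134, 117 and 154 at 4 µM and 127, 101 and 121 at 6 µM, so that the groups overlap at 4 µM and not at 6 µM. Within this sum KIF5B alone went from a mean of 36.2 FPKM at 0 µM to 21.0 at 6 µM, while the class mean went from 146.4 to 116.2. The separation of the summed class at 6 µM thus leans strongly on 1 gene. Exon sums of the class were 130, 119 and 114.5 FPKM with vehicle and 90.7, 87.9 and 101 at 6 µM, again apart. The mitotic class held 57.8% ± 4.43 (SD, n = 3) of all kinesin FPKM at 0 µM, 44.1% ± 2.196 at 4 µM and 43.2% ± 2.88 at 6 µM, and in the exon value 59.2% ± 2.01, 48.4% ± 1.27 and 44.4% ± 4.30. In bulk RNA, fewer cells in division and less RNA of these genes per cell cannot be told apart.

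**Figure D3:**
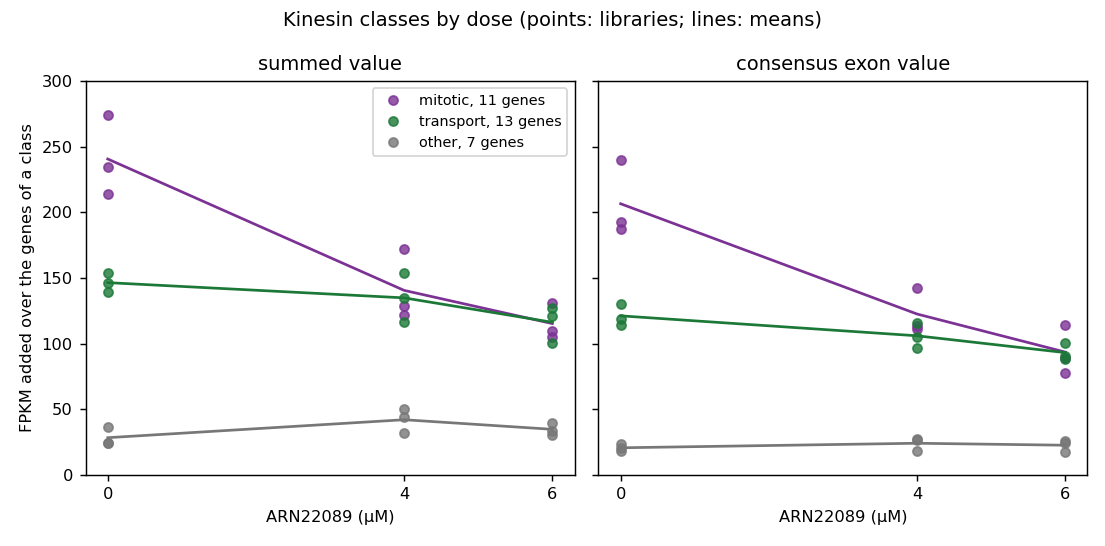
FPKM added over the genes of each class (vertical axis) against the dose of ARN22089 in µM, for the summed value (left) and the exon value (right), with points for libraries and lines through the means. In the summed value the mitotic sum has a mean of 240.6 FPKM at 0 µM and 115.2 at 6 µM, next to a transport sum of 116.2.

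Among the mitotic kinesins, the motors of the central spindle and of cytokinesis come first. KIF20A (MKLP2; chromosome 5, 138179112 to 138187723, GRCh38) brings the chromosomal passenger complex to the central spindle. Its summed level was 39.6, 34.3 and 34.5 FPKM in vehicle libraries, 19.4, 19.6 and 24.1 at 4 µM and 15.2, 20.8 and 18.1 at 6 µM. All treated libraries were below all vehicle libraries, while both doses overlapped. The difference was -0.76 ± 0.16 (SE) at 4 µM and -0.97 ± 0.16 at 6 µM (limma adjusted p = 0.263 and 0.0532). By the exon value KIF20A fell from 35.5 ± 2.72 to 15.2 ± 2.39 FPKM at 6 µM (-1.18 ± 0.14, limma adjusted p = 0.0188, between 0.015 and 0.082 with each library left out). Its replicate 2 at 6 µM, assembled in 2 blocks, read 20.8 FPKM in the summed and 12.8 in the exon value.

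KIF23 (MKLP1; chromosome 15, 69414349 to 69448427) is the motor subunit of centralspindlin, which marks the plane of division. Its summed levels were 36.5, 61.3 and 32.1 FPKM with vehicle, 20.3, 18.0 and 40.8 at 4 µM and 19.8, 14.7 and 19.8 at 6 µM. The high values of 61.3 and 40.8 came from the 2 libraries that assembled KIF23 in 2 blocks, where the exon value read 27.9 and 22.4. Exon values were close within groups, 27.9 to 29.9 at 0 µM, 16.7 to 22.4 at 4 µM and 13.6 to 18.1 at 6 µM, and KIF23 fell at 6 µM (-0.89 ± 0.14, limma adjusted p = 0.0278). The summed difference was -1.17 ± 0.34 (limma adjusted p = 0.139).

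KIF14 (chromosome 1, 200551497 to 200620751), which acts in cytokinesis with citron kinase, had the largest summed difference of the class. Its levels were 15.2, 20.5 and 22.9 FPKM in vehicle libraries, 3.72, 10.5 and 6.63 at 4 µM and 7.05, 3.53 and 7.99 at 6 µM. No treated library reached a vehicle library. The summed difference at 6 µM was -1.56 ± 0.37 (limma adjusted p = 0.09). All 3 vehicle libraries and replicates 1 and 3 at 6 µM held the gene in 2 blocks, and replicate 2 at 4 µM in 3. In the exon value KIF14 fell from 8.95 ± 1.496 to 3.49 ± 1.18 FPKM at 6 µM (-1.17 ± 0.24, limma adjusted p = 0.0372). Of its exon bases, 65.5% and 86.8% were assembled in replicates 1 and 2 at 4 µM and 70.3% in replicate 2 at 6 µM. With vehicle they were 99.65%, 99.17% and 99.97%.

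KIF20B (MPHOSPH1; chromosome 10, 89701590 to 89774934) acts late in cytokinesis. Its summed levels were 13.6, 5.89 and 6.19 FPKM with vehicle, 5.10, 5.65 and 5.03 at 4 µM and 3.05, 3.97 and 5.04 at 6 µM. Replicate 1 at 0 µM stood above all others, and the other vehicle libraries were just above the treated ones. The difference at 6 µM was -0.86 ± 0.30 (limma adjusted p = 0.197) in the summed value. KIF20B fell in the exon value from 6.57 ± 0.96 to 2.58 ± 0.86 FPKM (-1.10 ± 0.22, limma adjusted p = 0.0376), with 76.3% and 74.2% of its exon bases assembled in replicates 1 and 2 at 6 µM.

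The chromokinesins bind chromosome arms. KIF22 (Kid; chromosome 16, 29790751 to 29805385), which pushes the arms towards the spindle equator, stood at 46.8, 33.5 and 37.4 FPKM in vehicle libraries, 20.5, 23.5 and 28.4 at 4 µM and 18.2, 16.3 and 27.5 at 6 µM. The treated libraries were all below the vehicle libraries, and both doses overlapped. The difference was -0.68 ± 0.23 at 4 µM and -0.92 ± 0.23 at 6 µM (limma adjusted p = 0.384 and 0.0978). KIF22 fell in the exon value at 6 µM by 0.95 ± 0.19 on the log2 scale (limma adjusted p = 0.0349). KIF4A (chromosome X, 70290104 to 70420886), which also binds PRC1 at the central spindle, stood at 21.5, 14.5 and 13.99 FPKM with vehicle, 7.28, 8.26 and 14.5 at 4 µM and 6.24, 8.87 and 7.81 at 6 µM. At 4 µM replicate 3 lay inside the vehicle range in the summed value, though not in the exon value, where it read 10.1 FPKM. KIF4A fell at 6 µM in the exon value, from 16.1 ± 4.66 to 6.28 ± 1.40 FPKM (-1.22 ± 0.22, limma adjusted p = 0.0306). The summed difference was -1.02 ± 0.27 (limma adjusted p = 0.113). KIF4B, its intronless near copy, was not assembled, and reads from the copy could be counted for KIF4A.

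At centromeres and kinetochores, KIF2C (MCAK; chromosome 1, 44739837 to 44767767) removes tubulin from microtubule ends. Its summed levels were 40.8, 22.1 and 21.5 FPKM in vehicle libraries, 15.9, 15.5 and 17.3 at 4 µM and 14.6, 10.7 and 14.8 at 6 µM. The 3 doses did not overlap, and replicate 1 at 0 µM was far above the other vehicle libraries. The difference at 6 µM was -0.97 ± 0.25 (limma adjusted p = 0.105) in the summed value, and KIF2C fell in the exon value (-0.96 ± 0.19, limma adjusted p = 0.0366). KIF18A (chromosome 11, 28020619 to 28108156), which dampens chromosome movements at the plus ends of kinetochore microtubules, had summed levels of 8.91, 6.98 and 8.54 FPKM with vehicle, 4.86, 4.10 and 5.71 at 4 µM and 3.86, 2.61 and 4.24 at 6 µM. Again no treated library reached a vehicle library. The summed difference at 6 µM was -1.01 ± 0.20 (limma adjusted p = 0.0649), and in the exon value KIF18A fell by as much (-1.01 ± 0.17, limma adjusted p = 0.0291).

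The remaining 3 mitotic kinesins shape and separate the spindle poles. KIF11 (Eg5), which slides antiparallel microtubules apart, averaged 18.5 ± 6.21 FPKM at 0 µM, 9.08 ± 1.45 at 4 µM and 9.92 ± 1.27 at 6 µM in the summed value. Its exon values were 25.6, 14.97 and 14.8 FPKM with vehicle, 7.94, 7.77 and 10.6 at 4 µM and 6.25, 5.61 and 7.97 at 6 µM. All treated libraries were below all vehicle libraries, and replicate 1 stood above the other vehicle libraries. KIF11 fell at 6 µM in the exon value (-1.32 ± 0.23, limma adjusted p = 0.0291). Its summed difference was -0.80 ± 0.23 (limma adjusted p = 0.134), and 0.12 ± 0.23 between 6 and 4 µM. Replicate 2 at 6 µM, assembled in 2 blocks, read 11.4 FPKM in the summed value. KIF15, which backs up KIF11, averaged 5.75 ± 1.12, 3.94 ± 0.49 and 3.23 ± 0.79 FPKM in the summed value. Its exon values were 6.65, 5.40 and 4.53 FPKM in vehicle libraries, 2.46, 2.40 and 3.41 at 4 µM and 1.36, 1.31 and 2.27 at 6 µM, with no overlap between the 3 doses. KIF15 fell in the exon value from 5.52 ± 1.07 to 1.65 ± 0.54 FPKM at 6 µM (-1.31 ± 0.20, limma adjusted p = 0.0278). In replicates 1 and 2 at 6 µM only 48.8% and 47.5% of the exon bases of KIF15 were assembled, so its exon value there lies below the level of the assembled stretch, and the summed difference was -0.68 ± 0.21. KIF18B, which controls the length of astral microtubules, averaged 16.7 ± 2.43, 12.6 ± 2.24 and 10.5 ± 2.00 FPKM in the summed value. Its exon values were 14.3, 12.7 and 14.6 FPKM with vehicle, 8.70, 7.56 and 10.2 at 4 µM and 5.63, 5.60 and 9.08 at 6 µM. The vehicle libraries lay above all others, and both doses overlapped. KIF18B fell at 6 µM in the exon value (-0.96 ± 0.18, limma adjusted p = 0.0346), and its summed difference was -0.63 ± 0.19 (limma adjusted p = 0.151). In 6 of the 11 mitotic kinesins (KIF4A, KIF11, KIF18A, KIF20A, KIF22 and KIF23) every library's own assembly covered at least 90% of the exon bases. Over the class the median ratio of summed to exon value was 1.03 at 0 and 4 µM and 1.31 at 6 µM. At 6 µM the sum was over 1.5 times the exon value in 12 of 33 values, while 6 of the 33 came from separate blocks. The part of unassembled bases in the exon differences was not tested.

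**Figure D4:**
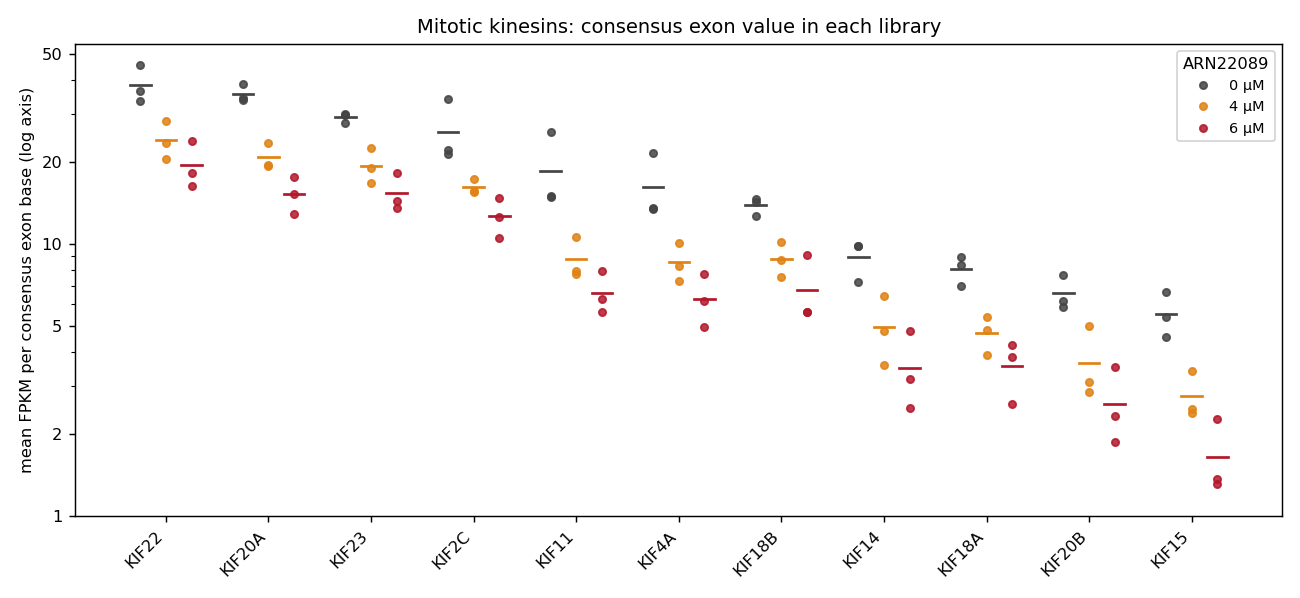
Exon value (mean FPKM per exon base, log axis) of the 11 mitotic kinesins in every library, by dose of ARN22089, with bars at the group means. For each gene all treated libraries lie below all 3 vehicle libraries, and the mean at 6 µM lies below that at 4 µM.

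The size of the mitotic differences varied with the replicate number. What a shared number means is not stated, so these libraries are not known to be pairs. The summed class level with vehicle was itself highest in replicate 1 (274, 234 and 214 FPKM). Taken between libraries of the same number, the median over the 11 at 6 µM was -1.32, -0.90 and -0.67 for numbers 1, 2 and 3 in the summed value, with 11 of 11 differences negative each time. The exon medians were -1.29, -1.26 and -0.73. At 4 µM the summed medians were -1.15, -0.65 and -0.33, with 11, 11 and 9 of 11 negative.

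Among transport kinesins, KIF5B (chromosome 10, 32009015 to 32056425), the heavy chain that moves mitochondria, lysosomes and many vesicles, had the highest mean level of the class. Its summed levels were 36.7, 34.8 and 37.2 FPKM in vehicle libraries, 39.7, 21.4 and 52.5 at 4 µM and 21.1, 17.4 and 24.4 at 6 µM. The vehicle libraries were close together, those at 6 µM were all lower, and those at 4 µM spread to both sides. Replicates 1 and 3 at 4 µM had the gene in 2 blocks, and their exon values were 25.6 and 32.5 FPKM. KIF5B fell in the exon value at 6 µM from 36.1 ± 1.47 to 20.9 ± 3.47 FPKM (-0.77 ± 0.17, limma adjusted p = 0.0457). The summed difference had the same size (-0.77 ± 0.29, limma adjusted p = 0.226). Its relative KIF5C, high in neurons, averaged 1.93 ± 0.58, 1.47 ± 0.38 and 1.39 ± 0.56 FPKM.

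Among the kinesins of vesicles and endosomes, KIF1B (chromosome 1, 10210570 to 10381603), a motor for mitochondria and lysosomes, stood at 10.2, 14.3 and 8.96 FPKM with vehicle, 6.26, 6.88 and 7.97 at 4 µM and 7.23, 7.26 and 7.24 at 6 µM. The treated libraries all lay below the vehicle libraries, and the doses did not differ beyond their spread (0.042 ± 0.18 between 6 and 4 µM). The difference from 0 µM was -0.58 ± 0.18 at 4 µM and -0.54 ± 0.18 at 6 µM (limma adjusted p = 0.37 and 0.19). KIF1C (chromosome 17, 4997950 to 5028401), which carries dense core vesicles and integrins, stood at 26.1, 19.8 and 17.7 FPKM in vehicle libraries, 20.5, 18.9 and 19.5 at 4 µM and 14.7, 15.6 and 19.5 at 6 µM. The groups overlapped, and the difference at 6 µM was -0.33 ± 0.17 (limma adjusted p = 0.355). KIF13A, which carries recycling endosomes and cargo of the melanosome pathway, averaged 16.0 ± 7.42, 17.7 ± 5.36 and 15.5 ± 9.19 FPKM in the summed value and 11.9 ± 2.04, 11.1 ± 0.89 and 10.1 ± 0.056 in the exon value. KIF16B, the motor of early endosomes, averaged 6.97 ± 0.56, 7.11 ± 0.62 and 5.87 ± 0.44 FPKM, with a difference at 6 µM of -0.21 ± 0.14 that is 0.043 under TPM scaling. KIF13B averaged 6.81 ± 2.15, 5.64 ± 3.75 and 5.62 ± 1.15 FPKM.

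The motor subunits of heterotrimeric kinesin, which serves transport inside cilia, passed in no comparison. KIF3B (chromosome 20, 32277651 to 32335011) stood at 20.1, 18.6 and 18.5 FPKM with vehicle, 26.5, 17.8 and 18.2 at 4 µM and 16.2, 21.5 and 22.4 at 6 µM. The groups overlapped, and the difference was 0.10 ± 0.19 at 4 µM and 0.059 ± 0.19 at 6 µM (limma adjusted p = 0.901 at 6 µM). The exon value turned the sign at both doses, to -0.14 ± 0.096 and -0.17 ± 0.096 (limma adjusted p = 0.515 and 0.307), with 20.1, 18.6 and 18.5 FPKM in vehicle libraries, 15.8, 17.7 and 18.1 at 4 µM and 16.2, 16.9 and 17.3 at 6 µM. There every treated library lay below every vehicle library. KIF3A averaged 9.74 ± 0.28, 5.37 ± 0.74 and 10.97 ± 5.58 FPKM in the summed value. Its summed difference at 4 µM was -0.76 ± 0.34, but 0.24 ± 0.14 in the exon value, and replicates 1 and 2 at 0 µM had assembled only 38.7% and 35.7% of its exon bases. KIF3C averaged 9.08 ± 3.43, 7.23 ± 0.58 and 6.94 ± 0.19 FPKM, with a difference at 6 µM of -0.28 ± 0.26 in the summed and 0.016 ± 0.23 in the exon value. KIF21A, which also restrains microtubule growth at the cell cortex, averaged 6.76 ± 0.64, 5.00 ± 0.45 and 4.75 ± 0.70 FPKM, with a difference of -0.44 ± 0.16 at 6 µM (limma adjusted p = 0.214).

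**Figure D5:**
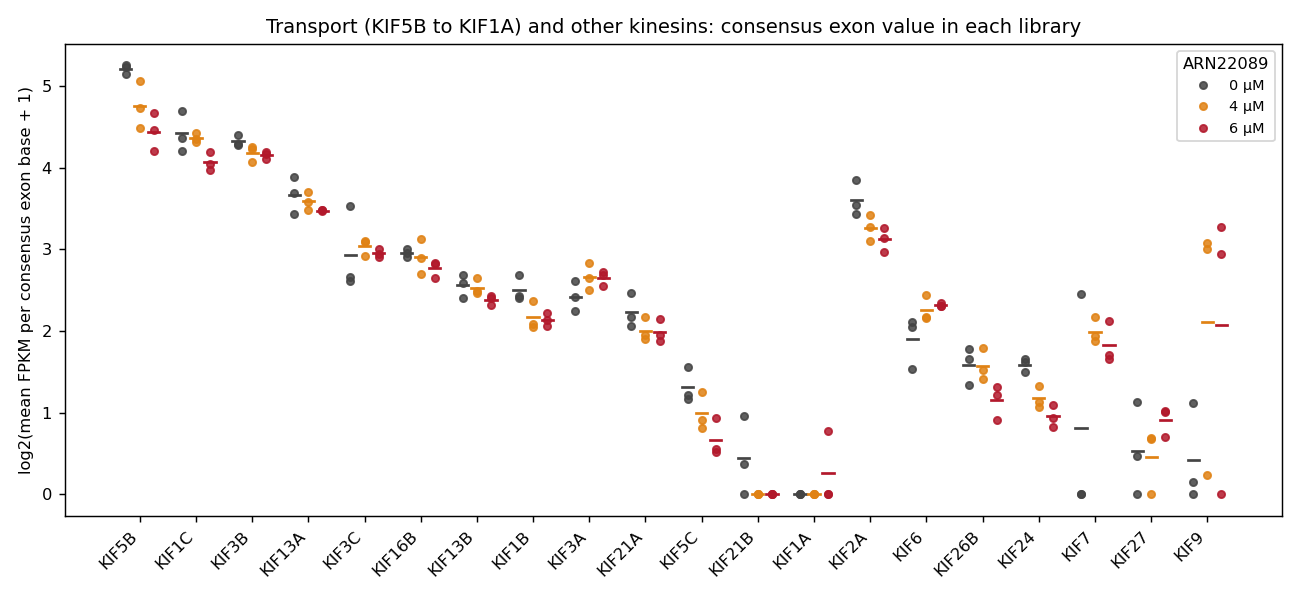
Exon value, as log2 of FPKM + 1, of the transport kinesins (KIF5B to KIF1A) and other kinesins (KIF2A to KIF9) in every library, by dose of ARN22089, with bars at the group means. At 6 µM the libraries of 6 of the 11 transport kinesins tested (KIF1B, KIF1C, KIF3B, KIF5B, KIF5C and KIF16B) lie wholly below those at 0 µM, as do those of 19.3% of all genes. In the summed value this holds for 4 of the 11, KIF1B, KIF5B, KIF16B and KIF21A (14.1% of all genes), while KIF1C, KIF3B and KIF5C overlap. At 6 µM 55.5%, 29.8% and 93.4% of the exon bases of KIF5C were assembled. KIF7 and KIF9 have libraries at 0 beside libraries well above it.

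Of the other kinesins, KIF2A (chromosome 5, 62306206 to 62391025) shortens microtubules at spindle poles, in axons and at cilia. Its summed levels were 10.2, 7.95 and 17.4 FPKM in vehicle libraries, 11.6, 11.3 and 9.84 at 4 µM and 6.995, 6.10 and 6.64 at 6 µM. In that value the 6 µM libraries were below all others, while 0 and 4 µM overlapped. Replicate 3 at 0 µM and replicates 1 and 2 at 4 µM held the gene in 2 blocks. Its exon values were 13.4, 9.79 and 10.7 FPKM with vehicle, 8.72, 7.58 and 9.725 at 4 µM and 8.60, 6.82 and 7.80 at 6 µM. There both doses lay wholly below vehicle (10.9% and 19.3% of all genes) and overlapped each other. The difference at 6 µM was -0.70 ± 0.25 in the summed value and -0.49 ± 0.15 in the exon value (limma adjusted p = 0.203 and 0.0886). KIF24, a centriolar kinesin that limits cilium formation, averaged 2.68 ± 0.76, 1.47 ± 0.21 and 1.57 ± 0.75 FPKM. Its difference at 6 µM was -0.53 ± 0.29 in the summed value (limma adjusted p = 0.361), where the groups overlapped. In the exon value it was -0.64 ± 0.16 (limma adjusted p = 0.0567). Of its exon bases, 61.2%, 75.5% and 83.5% were assembled at 6 µM, against 100%, 99.4% and 100% with vehicle. With KIF2A and KIF24 counted as mitotic, 13 of 13 summed differences were negative at both doses, with medians of -0.68 and -0.92.

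KIF6 (chromosome 6, 39329990 to 39725408), a ciliary kinesin, was the single kinesin tested that lay higher without overlap at both doses. Its summed levels were 5.38, 8.501 and 9.10 FPKM with vehicle, 10.1, 14.97 and 9.93 at 4 µM and 11.8, 12.9 and 12.8 at 6 µM. Such a separation upwards was seen in 9.96% of all genes at 4 µM and in 10.9% at 6 µM. The difference was 0.55 ± 0.22 at 4 µM and 0.67 ± 0.22 at 6 µM (limma adjusted p = 0.428 and 0.179). The groups were also apart at both doses in the exon value (10.6% and 12.1% of all genes), with 2.80 ± 0.79, 3.80 ± 0.55 and 3.99 ± 0.080 FPKM.

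KIF9 (chromosome 3, 47227998 to 47282799), another ciliary kinesin, was listed at 0 in all 3 libraries at 0 µM, with 0, 7.13 and 9.77 FPKM at 4 µM, and 7.52, 9.20 and 0 at 6 µM. It was thus assembled in 4 of 9 libraries, all treated, and a listed 0 can be a failed assembly. The fitted differences were 2.15 ± 1.07 at either dose (limma adjusted p = 0.493 and 0.333). The exon value takes in transcripts of any name on these bases, and its replicate 1 at 0 µM read 1.18 FPKM. KIF7 (chromosome 15, 89617309 to 89663049), which acts at the tip of the cilium in Hedgehog signalling, stood at 1.52, 0.872 and 0.846 FPKM in vehicle libraries, 4.46, 4.80 and 2.84 at 4 µM and 0.923, 4.75 and 1.60 at 6 µM. The 4 µM libraries were all above the vehicle libraries. However, the stretch assembled for KIF7 in the vehicle libraries covered 0% of its exon bases, and the exon value was 0, 0 and 4.46 FPKM there. The adjusted p at 4 µM was 0.376 in the summed and 0.374 in the exon value.

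KIF26B (chromosome 1, 245154985 to 245709432), a kinesin-like protein of kidney development, stood at 3.88, 2.43 and 5.95 FPKM with vehicle, 4.09, 9.38 and 8.72 at 4 µM and 3.08, 4.54 and 5.97 at 6 µM. The groups overlapped. Its difference at 4 µM was 0.71 ± 0.37 in the summed value and -0.014 ± 0.19 in the exon value. At 6 µM it was 0.15 ± 0.37 in the summed value and -0.44 ± 0.19 in the exon value (limma adjusted p = 0.195). In the exon value the 6 µM libraries of KIF26B lay wholly below the vehicle libraries, as in 19.3% of all genes. However, only 21.4%, 41.4% and 29.4% of its exon bases were assembled at 6 µM, against 95.7%, 100% and 99.5% with vehicle. Bases left unassembled count as 0 there. KIF27, related to KIF7, averaged 0.902 ± 0.80, 0.833 ± 0.72 and 1.46 ± 0.63 FPKM, with 2 libraries listed at 0.

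Below the filter were KIF21B, listed at 2.14, 2.30 and 0 FPKM at 0 µM and at 0 in all treated libraries, and KIF1A, a neuronal motor, at 0.714 FPKM in replicate 3 at 6 µM alone. The 8 kinesins not assembled were KIF2B and KIF4B of the mitotic class, KIF5A and KIF17 of the transport class, and KIF12, KIF19, KIF25 and KIF26A.

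In order of mean summed level at 0 µM, KIF23 (43.3 ± 15.7 FPKM), KIF22 (39.2 ± 6.84), KIF5B (36.2 ± 1.27) and KIF20A (36.1 ± 3.03) led the kinesins, and these 4 did not differ beyond their spread. In the exon value KIF23 averaged 29.2 ± 1.13 FPKM at 0 µM. Each of its vehicle libraries then lay below those of KIF22 (38.4 ± 6.22), KIF5B (36.1 ± 1.47) and KIF20A (35.5 ± 2.72). At 6 µM the summed order began with KIF5B (21.0 ± 3.50), KIF22 (20.6 ± 5.98), KIF3B (20.1 ± 3.36) and KIF23 (18.1 ± 2.93), again within their spread. In the summed value KIF14 was 7th of the 31 at 0 µM and 17th at 6 µM, and KIF6 19th and 9th. A gene assembled in separate blocks counts more than once in these ranks. The sum also ran above the exon value without such a split. KIF6 in replicate 2 at 0 µM, with 3 transcripts in 1 block, had 8.501 FPKM in the summed and 3.34 in the exon value. For KIF14 the summed means were 19.5 and 6.19 FPKM and the exon means 8.95 and 3.49. For KIF6 they were 7.66 and 12.5, against exon means of 2.80 and 3.99.

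The partners of these motors were read from lists written with earlier results of these data known. Of 18 spindle partners, 17 had a negative summed difference at 6 µM, with a median of -1.06, and in the exon value 18 of 18, with a median of -0.95, where 53.6% and 56.2% of all genes were negative. Limma called 2 of them in the summed value (0.311% of all genes), both lower, and 12 in the exon value (4.29%). AURKB, the kinase of the chromosomal passenger complex that KIF20A moves, fell from 71.3 ± 9.71 to 33.2 ± 6.26 FPKM (-1.09 ± 0.17, limma adjusted p = 0.0485), and NUSAP1, which bundles spindle microtubules, from 76.0 ± 5.50 to 34.2 ± 6.76 (-1.14 ± 0.18, limma adjusted p = 0.0485). TPX2, the spindle assembly factor that binds KIF11 and KIF15, averaged 84.8 ± 7.18 and 46.8 ± 11.3 FPKM (limma adjusted p = 0.0895) and fell in the exon value (-1.25 ± 0.23, limma adjusted p = 0.0333). MAPRE1, the plus-end protein EB1, averaged 99.8 ± 14.01 and 90.7 ± 8.93 FPKM. BIRC5, survivin, averaged 93.4 ± 26.3 and 29.4 ± 5.53 FPKM, with a difference of -1.61 ± 0.31 in the summed and -0.28 ± 0.38 in the exon value.

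The list of motors outside the naming rule held 4 genes, of which 2 had negative and 2 positive differences at 6 µM. CENPE, a kinetochore motor, averaged 20.4 ± 8.86 FPKM at 0 µM and 6.34 ± 4.12 at 6 µM, and KIFC1, a minus-end motor of the spindle, 39.1 ± 3.80 and 20.8 ± 5.00. Neither passed in the summed value, and both fell in the exon value (-1.27 ± 0.22 and -0.84 ± 0.18, limma adjusted p = 0.0289 and 0.0398). KIFC3, a minus-end motor of cell junctions and the Golgi, averaged 22.4 ± 3.15 and 33.7 ± 10.4 FPKM (limma adjusted p = 0.252).

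Of the 18 kinesin light chains and cargo adaptors tested, 11 were negative at 6 µM in both values (53.6% and 56.2% of all genes), with medians of -0.066 and -0.032. Limma called 0 in the summed value (0.311% of all genes) and 1, KIFBP, in the exon value (4.29%). KIFBP also stands on the list of spindle partners, and is among the 12 called there in the exon value. At an unadjusted p under 0.05, 2 were higher and 1 lower in the summed value (8.07% and 9.68% of all genes). KLC1, a light chain of conventional kinesin, averaged 52.4 ± 4.89 and 45.3 ± 1.82 FPKM, RHOT2, an anchor for mitochondria, 42.8 ± 3.36 and 42.2 ± 4.19, and PLEKHM2, which links lysosomes to KIF5B, 26.9 ± 1.19 and 40.4 ± 12.5. Of 22 genes of dynein and dynactin, the motor that runs the other way, limma called 0 in either value, with 0 at an unadjusted p under 0.05 in the summed and 1, lower, in the exon value, where 15.6% of all genes were lower at that level. Their medians were -0.053 and -0.14.

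The 6 proliferation markers had differences of the same sign as the mitotic kinesins. All 6 had negative differences at both doses in both values, with a summed median of -0.53 at 4 µM and -1.27 at 6 µM. MKI67, the Ki-67 antigen, fell from 24.5 ± 5.34 to 10.3 ± 0.63 FPKM at 6 µM (-1.15 ± 0.17, limma adjusted p = 0.0485). Limma called 1 of the 6 in the summed value (0.311% of all genes) and 5 in the exon value (4.29%). The summed level of the 6 was 498 to 697 FPKM at 0 µM, 395 to 480 at 4 µM and 268 to 344 at 6 µM, with none at 0. The part of a change in the share of dividing cells in the kinesin differences was not tested.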

How the data were processed

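The submitters' processing notes list Cufflinks 2.2.1, TopHat2 2.1 with Bowtie2 2.2.7, Trimmomatic, SAMtools 1.9 and R 4.0.3. The authors deposited 1 transcript assembly per library, whose attribute column holds, per the file headers' field names, FPKM and coverage for each transcript, without gene names. The notes name GRCh37, but 732 transcripts lie on scaffolds named only in GRCh38, and 95.8% of 193769 spliced transcripts share an intron length with a RefSeq gene at GRCh38 coordinates, against 17.4% at GRCh37 coordinates, so GRCh38 was used.

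Transcripts took the name of the gene they overlapped on the same strand with the most shared intron lengths. Strand comes from splice sites, so antisense and overlapping genes are uncertain. Testing took genes averaging 1 FPKM or more, on log2(FPKM + 1), in 1 limma 3.58.1 fit (R 4.3.3) of all 9 libraries with 6 residual degrees of freedom (checked on simulated data). Tables were made with Python 3.11.15 and pandas 2.3.3. The design had expected a gene table, and naming was an added step.

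Kinesins, classes and lists were chosen with earlier results of these data known. Values by library are given for the 3 highest members of each class, the 8 mitotic and 6 other members with the largest difference at 6 µM, and any that passed. Partners named are the 3 highest of a list and those that passed. KIFBP was named after its value was seen. Alternatives were the exon value, TPM scaling, median centring, pseudocounts of 0.1 and 0.5, no filter or 5 FPKM, a replicate block, only the doses compared, and each library left out. The exon value with each library left out, and with the block, was added after seeing the data.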

Additional observations from a re-analysis of the deposited data

How the results depend on the processing

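Without any library in turn, genes called ranged from 6 to 25 at 4 against 0 µM, from 16 to 75 at 6 against 0 µM and from 2 to 14 at 6 against 4 µM, and with the exon value from 5 to 20, 10 to 553 and 0 to 9. Kinesins called stayed at 0 in the summed value and ranged from 0 to 12 at 6 against 0 µM in the exon value, and from 0 to 1 at 4 against 0 µM. Mitotic medians ranged from -0.80 to -0.55 (4 against 0 µM), -1.04 to -0.79 (6 against 0) and -0.38 to -0.12 (6 against 4), and in the exon value from -0.84 to -0.60, -1.29 to -0.96 and -0.54 to -0.24. Transport medians ranged from -0.39 to -0.096, -0.35 to -0.16 and -0.14 to -0.029, and in the exon value from -0.16 to -0.082, -0.25 to -0.18 and -0.14 to -0.050.

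Genes called at 4 against 0 µM were 10, and 6 with a filter of 5 FPKM. At 6 against 0 µM they were 38, and 525 with the exon value, 15 with TPM scaling, 22 with no filter, 77 with a filter of 5 FPKM and 15 with the compared doses alone. At 6 against 4 µM they were 3, and 5 with no filter. Kinesins called at 6 against 0 µM were 12 with the exon value and 1, KIF20A, with a filter of 5 FPKM. The mitotic median under TPM scaling was -0.37 at 4 and -0.69 at 6 against 0 µM. The transport median at 4 against 0 µM was -0.082 in the exon value and 0.096 under TPM scaling, and at 6 against 0 µM -0.20 and -0.004. The cause of these shifts was not tested.

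Samples that share a number share a tag in the descriptions whose meaning is not given. Deviations of same-numbered samples correlated at -0.016 to 0.138 across genes in the summed value. The 3 of 9 pairs over 0.1 were all between 4 and 6 µM. Between 0 and 4 µM the same-numbered pairs had -0.016, -0.001 and 0.012. Each of the 9 libraries correlated best with a library of its own number, a hint from the data that is weak for the vehicle libraries. With the replicate block, genes called were 2, 4 and 1 in the 3 comparisons, with 0 kinesins. In the exon value with the block they were 5, 698 and 0, with 12 kinesins at 6 against 0 µM, and transport medians were -0.082 and -0.20.

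Directions turned in the exon value for KIF3A (0.24 at 4 against 0 µM, 0.15 to 0.34 with libraries left out; -0.010 at 6 against 4 µM, -0.089 to 0.076 with libraries left out, and as high as 1.23 in the summed value), KIF3C at 6 against 0 µM (0.016, -0.15 to 0.31) and KIF26B at 4 against 0 µM (-0.014, -0.14 to 0.081, and as high as 1.04 in the summed value with a library left out), also with the block. Except for KIF3A at 4 against 0 µM, the turned sign did not hold with each library left out. Summed differences smaller than their SE also turned, for KIF3B, KIF3C, KIF13A and KIF16B at 4 against 0 µM, KIF3B and KIF26B at 6 against 0 µM, and KIF1B, KIF11, KIF13B and KIF24 at 6 against 4 µM. KIF16B at 6 against 0 µM turned under TPM scaling (0.043). Depth in reads is unknown, so a listed 0 cannot be given a limit.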
